A study of Homo sapiens with 12 samples.

Results

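The genes described here are 43 components of NF-kB and Toll signalling, chosen by name from the 58907 genes of the deposited count table: the NF-kB subunits, their inhibitors, the kinases that release them, and the adaptors and ubiquitin ligases that carry the signal from Toll-like and TNF-family receptors. Cytokines and receptors were not among them. Of the 43, 41 passed a filter on low counts that 15252 genes passed in all. The cells were PPRE-eGEP-THP-1, made from THP-1 (human monocytic leukaemia), so the 12 RNA libraries stand for 1 cell line. Every group was first differentiated with phorbol 12-myristate 13-acetate (PMA) at 25 ng/mL over 48 h, followed by 24 h without it. The M1 groups were then given 24 h of lipopolysaccharide (LPS) at 100 ng/mL with interferon gamma at 20 ng/mL, and the M2 groups interleukin 4 and interleukin 13 (20 ng/mL each). During those 24 h each received monocyclohexyl phthalate (MCHP, 100 µM), a phthalate monoester, or its solvent DMSO, which gave 4 groups of 3 libraries that the labels call biological replicates. The 12 libraries hold no unpolarized cells, so a gene that is higher in M1 cannot be told apart from one that is lower in M2.

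NF-kB is a family of dimeric transcription factors that wait in the cytoplasm, bound by inhibitor (IkB) proteins. Ligands of Toll-like receptors such as LPS act through the adaptors MYD88 and TRIF, the IRAK kinases and the TRAF ubiquitin ligases on the IKK complex, which marks the inhibitors for destruction and sets the dimers free. In macrophages the freed dimers switch on inflammatory genes and also the genes of their own inhibitors, such as NFKBIA and TNFAIP3, so the pathway carries its own brakes. A slower branch, through the kinase NIK, processes NFKB2 and acts with RELB.

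Library sizes were 14352202 to 16871233 gene counts. Of the M1 markers, CXCL10 averaged 348 CPM (counts relative to TMM-adjusted library size) in M1 DMSO and 0.478 in M2 DMSO, and IDO1 224 and 0. Summed CPM of 8 M2 markers were 2152 to 2378 in M1 and 8811.5 to 11464 in M2, mostly from TGM2 (2115 CPM in M1 DMSO, 9391 in M2 DMSO). CCL22 (12.3 and 742 CPM), CD209 (53.5 and 161) and ALOX15 (0.346 and 11.8) were also higher in M2 DMSO. The M2 markers MRC1, CCL17 and CD200R1 held only 2, 12 and 39 counts over all 12 libraries and MAOA none. Of 10 macrophage markers, 9 passed the filter, with CD68 at 36 counts in all. Of the markers of other cell types, CD2, MS4A1, COL3A1, DCN and EPCAM were at 0 in every library, whereas COL1A1 (116 CPM in M1 DMSO, 27.6 in M2 DMSO) and TRAC (15.9 and 32.6 CPM) were measured in all groups. Summed CPM of the 5 fibroblast markers, mostly COL1A1, were 119.5 to 142 in M1 and 36.5 to 47.4 in M2. PDGFRB, the only other fibroblast marker that passed the filter, went the other way (6.3 CPM in M1 DMSO, 15.7 in M2 DMSO). Summed CPM of the 7 T or NK cell markers were 17.8 to 23.7 in M1 and 24.4 to 45.2 in M2. The part of these markers in the results below was not tested. M2 DMSO replicate 1 stood apart. Log2 deviations from the rest of its group, taken over all genes, had an SD of 0.45 in this library and of 0.32 to 0.35 in the other 11.

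In M2 DMSO replicate 1, 13 of the 41 members (31.7%) lay more than 1.25-fold from the mean of replicates 2 and 3 (1 CPM added to each), beside 30.3% of all genes tested. It was lower for RELB (-0.80 on the log2 scale), IRAK1 (-0.52), BCL3 (-0.50), TICAM1, NFKB2, TNFAIP2, NFKBIB and RELA, and higher for REL (0.48), BIRC3 (0.40), MAP3K7 (0.40), TNFAIP8 and BIRC2. The median coefficient of variation over the members was 8.56% in M2 DMSO, against 3.84% in M1 DMSO, 2.90% in M1 MCHP and 4.48% in M2 MCHP.

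Several members are known targets of NF-kB themselves, and the sequences before their start sites are shown for the genes on which the results turn. Windows from 250 bases before to 50 bases after the start were taken from RefSeq (GRCh38.p14) for 39 of the 43 members. Both strands were searched for the kappa B consensus (the decamer bound by NF-kB dimers), for the GAS element, TTCNNNGAA, and for the core of the ISRE bound by IRF factors. A kappa B match lay in 14 of the 39 windows (35.9%), beside 11.9% of the windows of 17360 genes and 13.0% of those of 10290 tested genes. A GAS match lay in 2 members (5.13%, against 7.22% of all windows) and an ISRE core in 1 (2.56%, against 3.32%). These are matches of letters and no measure of binding. Capitals mark kappa B matches in the first 4 sequences and a GAS match with the overlapping ISRE core in MYD88. All are printed on the strand of the gene, 5′ to 3′.
NFKBIZ (chr3:101827740-101827989, plus strand): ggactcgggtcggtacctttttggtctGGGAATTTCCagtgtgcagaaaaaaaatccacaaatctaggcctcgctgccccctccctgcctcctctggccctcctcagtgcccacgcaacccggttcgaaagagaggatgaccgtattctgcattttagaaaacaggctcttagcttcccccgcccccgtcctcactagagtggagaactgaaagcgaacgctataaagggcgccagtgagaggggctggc
NFKBIA (chr14:35404750-35404999, minus strand): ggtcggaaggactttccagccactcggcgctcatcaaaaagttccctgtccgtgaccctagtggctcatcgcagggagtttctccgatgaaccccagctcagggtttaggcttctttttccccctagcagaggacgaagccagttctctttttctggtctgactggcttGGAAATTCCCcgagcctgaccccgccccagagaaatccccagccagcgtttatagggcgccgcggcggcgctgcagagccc
BIRC3 (chr11:102317234-102317449, plus strand): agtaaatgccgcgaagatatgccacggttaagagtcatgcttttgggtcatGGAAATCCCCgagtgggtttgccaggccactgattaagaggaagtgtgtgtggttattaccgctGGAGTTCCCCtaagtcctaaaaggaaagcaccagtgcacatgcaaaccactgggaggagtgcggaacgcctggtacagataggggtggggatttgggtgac
TNFAIP3 (chr6:137867188-137867217, plus strand): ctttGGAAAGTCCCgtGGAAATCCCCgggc
MYD88 (chr3:38138587-38138616, plus strand): gcggcgcTTCTCGGAAAGCGAAAgccggcg
NFKBIZ and NFKBIA each had 1 match, beginning 223 and 81 bases before the RefSeq start, and BIRC3 had 2, at 199 and 135 bases. The TNFAIP3 site holds 2 adjacent matches, at 67 and 55 bases. MYD88 was the only member with an ISRE core, 61 bases before its RefSeq start. The TNFAIP3 and MYD88 sites lie within the deposited gene models, which begin 71 and 183 bases before the RefSeq starts. The RefSeq starts used for TAB2, TAB3, TNIP1, TRAF2 and BCL3 were 99071, 85830, 12543, 4604 and 1003 bases from the starts of their gene models. The BCL3 match begins after its RefSeq start, at base 3. The other 10 members with a kappa B match were BCL3, CYLD, IRAK1, MAP3K8, NFKB1, REL, TICAM1, TNIP1, TNIP3 and TRAF3.

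Levels of different genes were compared per length of gene model, as TPM, which divides by length before scaling to the library. In M1 DMSO the highest member was TNFAIP2, a TNF-induced protein of myeloid cells, at 639 ± 9.65 TPM (SD, n = 3), followed by the kinase gene IRAK1 (253 ± 14.2) and TNIP1, a partner of the ubiquitin editor A20 (239 ± 3.02). In M2 DMSO the order began with IRAK1 (281 ± 51.1) and NFKBIA, which encodes the inhibitor IkB alpha (249.8 ± 4.67), whose ranges overlap, and TNFAIP2 stood at 88.9 ± 13.1 TPM. Among the subunits in M2 DMSO, NFKB2 (125 ± 18) and RELB (104 ± 28.8) did not differ beyond their spread, nor did RELA (73.3 ± 8.36) and NFKB1 (68.1 ± 2.0). In M1 DMSO these ran from NFKB2 (180.5 ± 2.57) through RELB (164 ± 3.52) and RELA (131 ± 7.21) to NFKB1 (85.7 ± 1.54), each step beyond the SDs. REL was the lowest subunit in both, at 9.95 ± 0.191 TPM in M1 DMSO and 9.54 ± 2.07 in M2 DMSO. At the lower end stood the kinase genes MAP3K14 and MAP3K8 and the adaptor gene TIRAP, at 3.84 to 10.0 TPM on average in every group.

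Expression of 2 members was at or near 0. TNIP3, which encodes the A20 partner ABIN-3, had 1 count in 1 library of M1 MCHP and none in the other 11 libraries. For a group of 3 libraries a count of 0 allows up to 0.0674 CPM in M1 DMSO and 0.0595 CPM in M2 DMSO (3 counts over the group). TICAM2, which encodes the bridging adaptor TRAM of TLR4, had 13 counts in M1 DMSO, 13 in M1 MCHP, 4 in M2 DMSO and 8 in M2 MCHP. Both were left out of the tests. TICAM2 shares its locus with the readthrough gene TMED7-TICAM2, which had 27 counts in all against 38 for TICAM2.

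**Figure D1:**
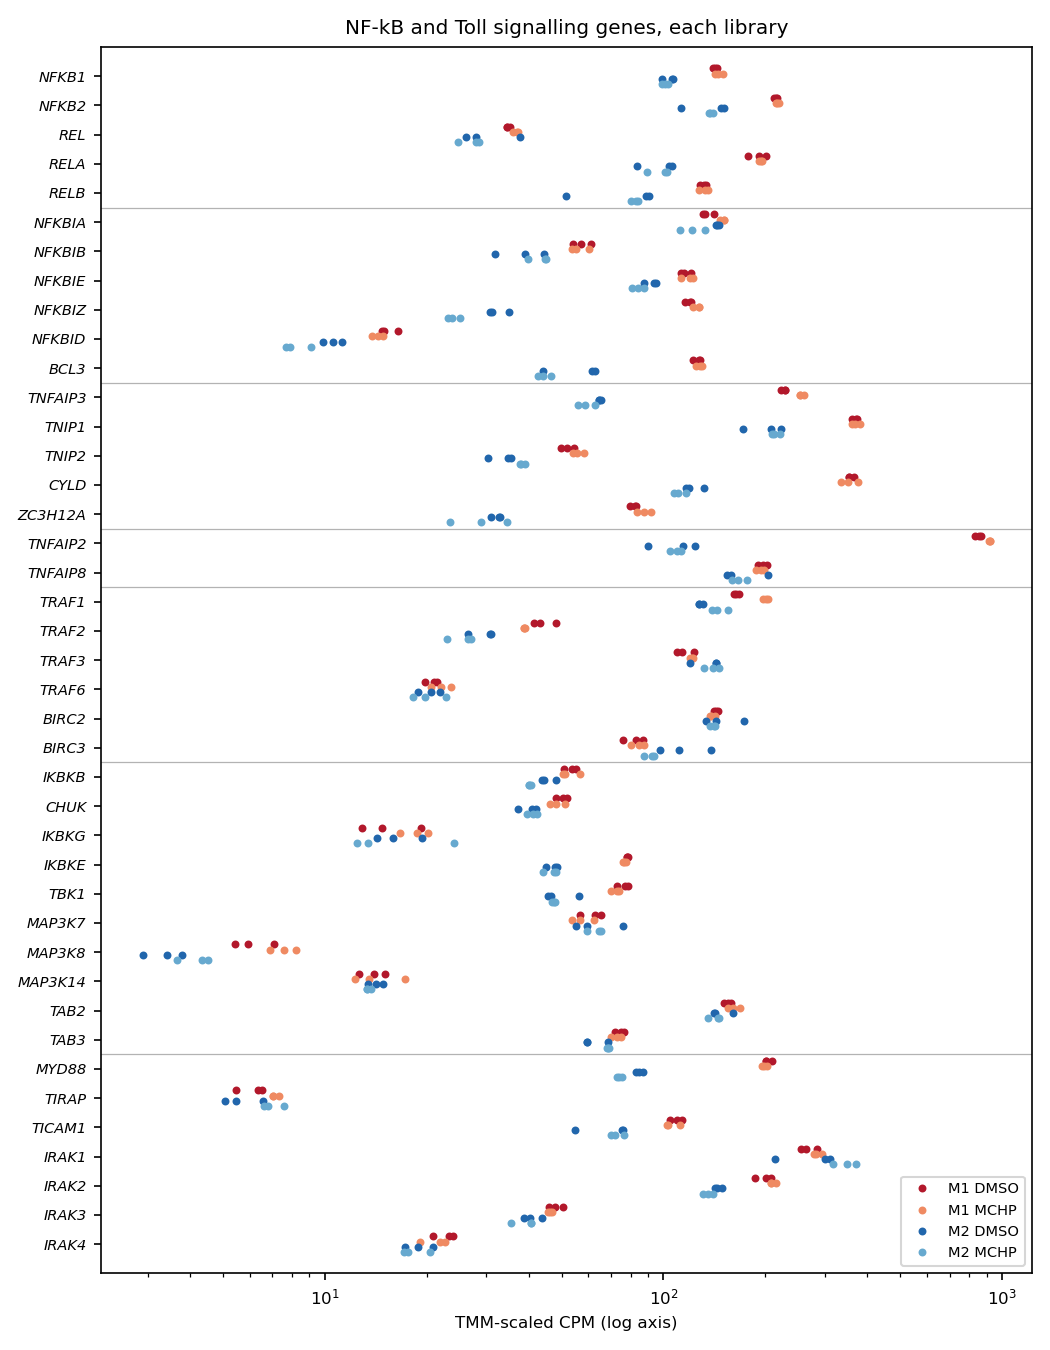
TMM-scaled CPM (log axis) of the 41 members that passed the filter, 1 point per library, coloured by group and grouped by role with horizontal lines. TNFAIP2 spans the widest distance, 834 to 919 CPM in the 6 M1 libraries and 89.7 to 124 in the 6 M2 libraries, while the groups of TRAF6 and MAP3K14 overlap in each of the 4 comparisons between groups.

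The comparison of M1 with M2 in solvent asks how the levels of the pathway's own genes differed between the polarizing stimuli. Most were expressed more in M1: the brakes TNFAIP3 (3.48-fold), CYLD (2.93-fold) and ZC3H12A (2.54-fold), the nuclear IkB proteins NFKBIZ (3.68-fold) and BCL3 (2.24-fold), the adaptor MYD88 (2.39-fold) and, farthest, TNFAIP2 (7.80-fold). Only BIRC3, the gene of the ubiquitin ligase cIAP2, and TRAF3 were called lower. NFKBIA, the prototype of the inhibitors, was not called. In bulk RNA such as this, fewer cells expressing a gene and less of its RNA per cell cannot be told apart.

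At an adjusted p under 0.05 (edgeR's quasi-likelihood test, two-sided, Benjamini-Hochberg over 15252 genes) 27 of the 41 members tested were higher in M1 DMSO than in M2 DMSO and 2 were lower. Over all genes tested, 21.6% were called higher and 20.9% lower, and among genes with a mean of at least 10 CPM, 27.9% and 24.5%. The median log2 fold change was 0.45 over the members and -0.00 over all genes (0.02 over those of at least 10 CPM). Of the 29 calls, 25 held under all 19 alternatives run. TRAF3, IKBKB, TAB3 and IRAK3, all with log2 fold changes of at most 0.25 in size, did not. Scaled by library size alone, all genes together had a median of -0.13, the calls over all genes went from 3296 higher and 3193 lower to 2395 and 4532, and the members were called 24 higher and 3 lower.

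**Figure D2:**
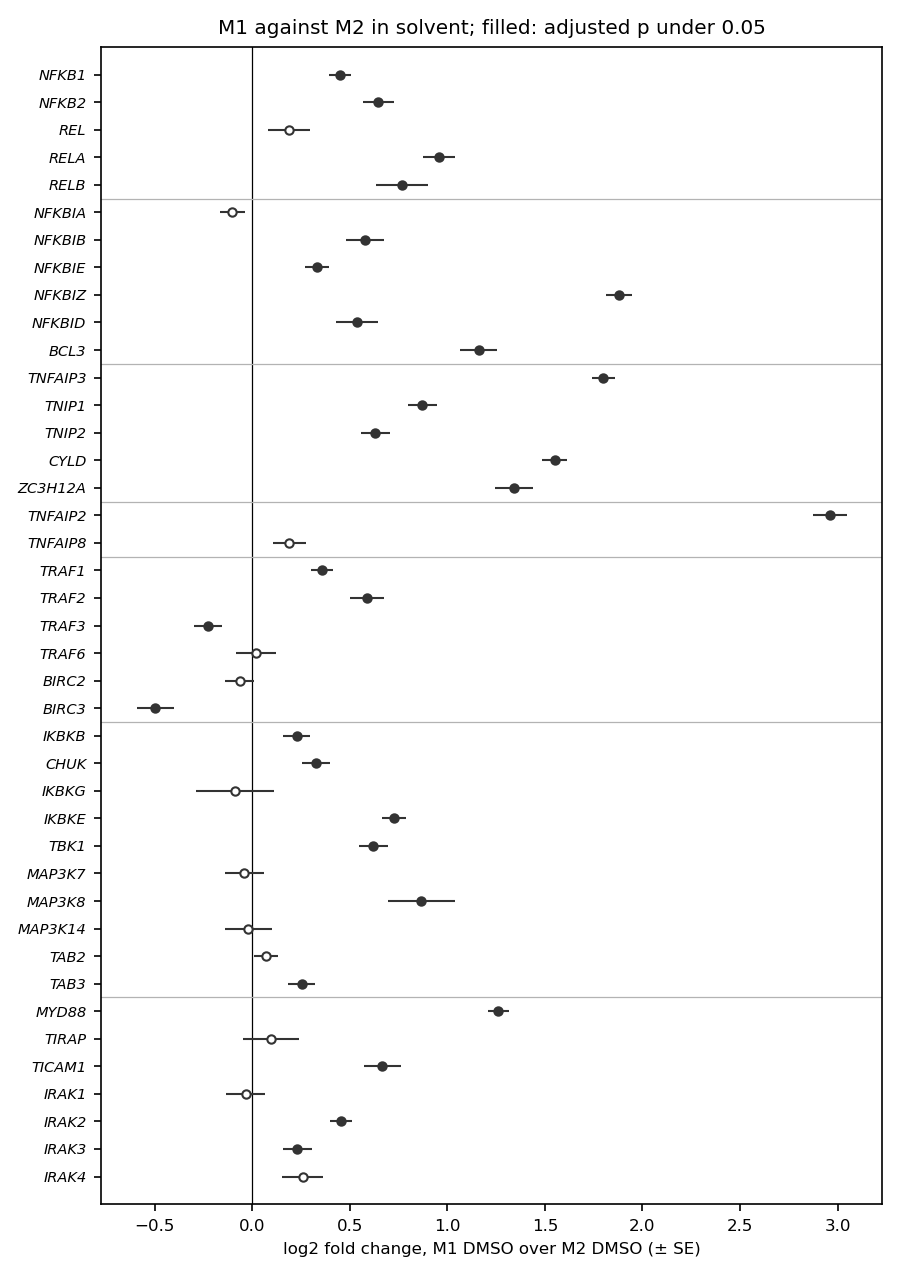
Log2 fold change of M1 DMSO over M2 DMSO for the 41 members tested, with standard errors, grouped by role. Filled points passed an adjusted p of 0.05: 27 to the right of 0 and, to the left, TRAF3 (-0.23) and BIRC3 (-0.50).

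Of the 5 subunits, 4 were called higher in M1. RELA, the activating p65 subunit (ENSG00000173039, chr11:65653596-65663094, minus strand, hg38), had 200.4, 192 and 178 CPM in M1 DMSO replicates 1 to 3 and 83.5, 104 and 106 CPM in M2 DMSO. All M1 libraries lay above all M2 libraries, by 0.96 ± 0.08 on the log2 scale (SE, adjusted p = 1.5e-08). Its partner NFKB1, the source of p50 (ENSG00000109320, chr4:102501329-102617302, plus strand), had 139.8, 142 and 144 CPM in M1 and 99.0, 107 and 106 in M2, a log2 fold change of 0.45 ± 0.06 (adjusted p = 2.6e-06). In the slower branch, NFKB2 (ENSG00000077150, chr10:102394110-102402529, plus strand) had 214, 212 and 216 CPM in M1 and 112, 151 and 148 in M2 (0.65 ± 0.08, adjusted p = 2.7e-06). For its partner RELB (ENSG00000104856, chr19:45001430-45038198, plus strand) the values were 128, 134 and 132 CPM in M1 and 51.5, 88.9 and 90.8 in M2 (0.77 ± 0.13, adjusted p = 0.00011). In both of these genes, and in RELA, M2 DMSO replicate 1 was the lowest library, and the calls held without it. REL, a subunit best known from lymphocytes (ENSG00000162924, chr2:60881521-60931610, plus strand), had 34.4, 34.4 and 35.3 CPM in M1 and 37.6, 27.9 and 26.1 in M2, where replicate 1 was above all M1 libraries. REL was not called (0.19, adjusted p = 0.18), but was without that library (0.36, adjusted p = 0.00038).

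Of the 6 IkB genes, 5 were higher in M1, and the widest differences belonged to the nuclear members, which modulate NF-kB on the DNA. NFKBIZ, whose product IkB zeta is needed for a later wave of inflammatory genes (ENSG00000144802, chr3:101827991-101861022, plus strand), had 119.9, 120.2 and 116 CPM in M1 DMSO and 34.9, 30.8 and 31.1 in M2 DMSO, a log2 fold change of 1.88 ± 0.07 (adjusted p = 4.5e-14). BCL3, which works with p50 and p52 dimers (ENSG00000069399, chr19:44747705-44760044, plus strand), had 128, 127 and 122 and 44.1, 61.7 and 62.8 CPM (1.16 ± 0.10, adjusted p = 8.8e-09), with replicate 1 the lowest of the M2 libraries. NFKBID, the third nuclear member, differed less (0.54 ± 0.11). Among the cytoplasmic inhibitors, NFKBIB (0.58 ± 0.10) and NFKBIE (0.33 ± 0.06) were called higher. NFKBIA (ENSG00000100906, chr14:35401511-35404749, minus strand) went the other way without passing the test. It had 131, 141 and 132 CPM in M1 DMSO and 144, 146 and 143 in M2 DMSO, a difference of -0.10 ± 0.06 (adjusted p = 0.21), although no M1 library reached the M2 range. With library size as the only scaling it was called lower (-0.23, adjusted p = 0.0065). NFKBIB overlaps SIRT2 on the opposite strand, and as no strand setting is given in the sources used here, their reads cannot be told apart.

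All 5 tested genes of A20 and the other brakes were called higher in M1, with a median log2 fold change of 1.34. TNFAIP3, which encodes the ubiquitin editor A20 (ENSG00000118503, chr6:137867188-137883312, plus strand), had 222, 228 and 228 CPM in M1 DMSO and 64.6, 64.7 and 65.4 in M2 DMSO (1.80 ± 0.06, adjusted p = 9.7e-15). CYLD, a deubiquitinase that trims signalling chains (ENSG00000083799, chr16:50742050-50801935, plus strand), had 366, 352 and 353 and 131, 116 and 119 CPM (1.55 ± 0.06, adjusted p = 3.9e-13). ZC3H12A, the RNase Regnase-1 that degrades inflammatory mRNAs (ENSG00000163874, chr1:37474552-37484379, plus strand), had 82.2, 79.6 and 82.8 and 30.9, 32.6 and 32.9 CPM (1.34 ± 0.10, adjusted p = 1.5e-09). In these 3 genes the replicates of each group were close and the groups lay far apart. The A20 partners TNIP1 (0.87 ± 0.07) and TNIP2 (0.63 ± 0.07) were higher by smaller amounts. TNFAIP2, named for its induction by TNF (ENSG00000185215, chr14:103123442-103137439, plus strand), had 865, 856 and 834 CPM in M1 and 89.7, 114 and 124 in M2, the largest difference among the members (2.96 ± 0.09, adjusted p = 2.2e-15). TNFAIP8, a regulator of cell death, was not called (0.19, adjusted p = 0.075). It was called when M2 DMSO replicate 1 was left out (0.33, adjusted p = 3.2e-06) and without a filter on low counts (adjusted p = 0.04).

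The 6 ubiquitin ligase genes split. TRAF1, which lacks the ligase domain of its relatives, was 164 ± 2.79 CPM in M1 and 128 ± 2.23 in M2 (0.36 ± 0.06), and TRAF2, which recruits the cIAPs to TNF receptors, was also higher (0.59 ± 0.09). BIRC3 (ENSG00000023445, chr11:102317450-102339403, plus strand) was lower in M1, with 82.7, 87.2 and 75.8 CPM against 138, 112 and 97.4 in M2 (-0.50 ± 0.10, adjusted p = 0.00033). The M2 libraries were spread, with replicate 1 the highest, but all 3 stood above M1. Its paralog BIRC2 (cIAP1), whose gene lies 7.81 kb away on chromosome 11, was not called (-0.07, adjusted p = 0.52). TRAF3, which keeps the kinase NIK in check, was 114, 109.7 and 123 CPM in M1 and 119.8, 143 and 143 in M2, with overlapping groups (-0.23 ± 0.07, adjusted p = 0.015). Its call was lost without M1 DMSO replicate 1 or 2 or M2 DMSO replicate 2 or 3, and in a fit of the compared groups alone (adjusted p up to 0.081). TRAF6, the ligase of the MYD88 branch, was not called (20.7 ± 0.953 and 20.5 ± 1.53 CPM; 0.02, adjusted p = 0.91).

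Of the 10 kinases and kinase adaptors, 6 were higher in M1 and none lower. The largest were MAP3K8 (TPL2), which links IKK to the ERK pathway, at 6.14 ± 0.854 against 3.37 ± 0.438 CPM (0.87 ± 0.17), and the IKK-related kinases IKBKE (0.73 ± 0.06) and TBK1 (0.62 ± 0.08), which phosphorylate IRF3. The catalytic IKK subunits CHUK (0.33 ± 0.07) and IKBKB (0.23 ± 0.07, adjusted p = 0.015) and the TAK1 adaptor TAB3 (0.25 ± 0.07) differed little. IKBKB was no longer called without M1 DMSO replicate 3 or M2 DMSO replicate 3 (adjusted p = 0.064 and 0.057), or without a filter on low counts. With library size as the only scaling neither IKBKB (adjusted p = 0.29) nor TAB3 (adjusted p = 0.17) was called. TAK1 itself (MAP3K7, -0.04), TAB2 (0.07), NIK (MAP3K14, -0.02) and the IKK scaffold NEMO (IKBKG, -0.09) were not called. TAB2 was called higher without M2 DMSO replicate 1 (0.13, adjusted p = 0.033) and was at -0.06 when scaled by library size alone. The IKBKG value is uncertain, as the gene has a near-identical pseudogene copy with which its reads can be shared. CHUK overlaps ERLIN1 on the same strand (9375 counts in all against 8389), and MAP3K14 an antisense gene.

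Of the 7 tested Toll adaptors and IRAK kinases, 4 were higher in M1. MYD88, the adaptor of most Toll-like and interleukin 1 receptors (ENSG00000172936, chr3:38138478-38143022, plus strand), had 208, 200.5 and 201 CPM in M1 DMSO and 84.4, 87.1 and 83.2 in M2 DMSO (1.26 ± 0.05, adjusted p = 7.8e-13), with no overlap. TICAM1, which encodes the TRIF adaptor of TLR3 and TLR4, was 109 ± 4.19 against 68.7 ± 12.0 CPM (0.67 ± 0.09). IRAK2 (0.45 ± 0.06) and the inhibitory pseudokinase gene IRAK3 (0.23 ± 0.08, adjusted p = 0.02) were also called. The IRAK3 call was lost without M1 DMSO replicate 1 or M2 DMSO replicate 2 or 3, with library size as the only scaling, without a filter on low counts and in the compared groups alone (adjusted p from 0.054 to 0.31). IRAK4, which starts the kinase cascade (0.26, adjusted p = 0.058), IRAK1 (-0.03) and TIRAP (0.10) were not called. Without M2 DMSO replicate 1, IRAK1 was called lower (-0.19, adjusted p = 0.0065) and IRAK4 higher (0.33, adjusted p = 0.0099), as IRAK4 also was without M1 DMSO replicate 3 (adjusted p = 0.049). TIRAP was at 6.10 ± 0.554 and 5.70 ± 0.771 CPM, and overlaps an antisense gene.

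Set beside the promoter matches, the 13 tested members with a kappa B match counted 8 higher and 2 lower in M1, with a median log2 fold change of 0.67 and a range from -0.50 (BIRC3) to 1.88 (NFKBIZ). The 24 without a match counted 16 higher and none lower, with a median of 0.41 and a range from -0.09 to 2.96 (TNFAIP2). MYD88, with the GAS and ISRE letters, was at 1.26, and TNIP2, the other member with a GAS match, at 0.63. Windows of RELB, NFKBIE, IKBKB and TIRAP were not used here.

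The same polarization contrast between the MCHP-treated groups compared 6 libraries other than those compared in solvent. Both contrasts came from the fit over all 12 libraries and share its estimate of spread, so they are not independent. Of the 41 members, 29 were higher in M1 MCHP than in M2 MCHP and 2 lower, where 21.9% and 22.7% of all genes were called (3342 and 3462; 2678 and 4338 with library size as the only scaling), and the median was 0.49. All 5 subunits and all 6 IkB genes were now called higher, REL (0.44 ± 0.11, adjusted p = 0.0029) and NFKBIA (0.29 ± 0.06, adjusted p = 0.00088) among them. NFKBIZ stood at 2.38 ± 0.07, TNFAIP3 at 2.11 ± 0.06 and BCL3 at 1.52 ± 0.10. BIRC3 was not called (-0.11, adjusted p = 0.37), and IRAK1 was called lower (-0.28 ± 0.10, adjusted p = 0.035), as was TRAF3 (-0.20 ± 0.07, adjusted p = 0.029). Both of these were lost without any 1 of the M1 MCHP libraries or M2 MCHP replicates 1 or 3. Of the 31 calls 26 held under all 19 alternatives, and the others lost under some were CHUK, TAB2 and IRAK3. Which of these polarization differences changed with MCHP was tested as a contrast of its own.

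MCHP in M2 cells went with lower expression of 4 members, each by a small factor, and none was called higher. NFKBIZ fell 1.34-fold, BIRC3 1.27-fold, NFKBIA 1.18-fold and MYD88 1.15-fold. They are a nuclear IkB, a ubiquitin ligase, the classical IkB and the central Toll adaptor. NFKBIZ, BIRC3 and NFKBIA hold kappa B matches in the sequences printed above, and the MYD88 window holds none. Of the 13 tested members with a match only these 3 were called lower, and of the 24 without a match 1 was. The median log2 fold changes were -0.13 and -0.03, and a link with the matches was not tested. Over all genes 2.92% were called higher and 2.18% lower (446 and 333, but 306 and 465 with library size as the only scaling, where 6 members were lower). The median log2 fold change was -0.04 over the members and -0.00 over all genes, and 13 members had an unadjusted p under 0.05, 3 higher and 10 lower, beside 1542 higher and 1321 lower among all 15252 genes.

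NFKBIZ had 23.8, 25.1 and 23.1 CPM in M2 MCHP replicates 1 to 3, against 34.9, 30.8 and 31.1 in M2 DMSO. All treated libraries were below all solvent libraries, with a log2 fold change of -0.42 ± 0.07 (adjusted p = 0.0016). This call held in 18 of 19 alternatives, also without M2 DMSO replicate 1 (-0.36, adjusted p = 0.00055), and was lost in the fit of the 6 M2 libraries alone (-0.43, adjusted p = 0.061). NFKBIA had 122, 132 and 112 CPM with MCHP and 144, 146 and 143 with DMSO, again without overlap (-0.24 ± 0.06, adjusted p = 0.03). The treated libraries were the more scattered, with replicate 3 the lowest. MYD88 had 75.3, 72.8 and 73.7 against 84.4, 87.1 and 83.2 CPM, close replicates with no overlap (-0.20 ± 0.06, adjusted p = 0.042).

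BIRC3 had 92.3, 93.5 and 87.3 CPM with MCHP and 138, 112 and 97.4 with DMSO (-0.34 ± 0.10, adjusted p = 0.043). Its size leaned on M2 DMSO replicate 1, the highest library, without which BIRC3 was at -0.20 (adjusted p = 0.043). The calls of NFKBIA, MYD88 and BIRC3 held in 10, 5 and 7 of 19 alternatives. In the fit of the 6 M2 libraries alone none of them was called (adjusted p = 0.19 for NFKBIA and BIRC3, 0.25 for MYD88). Leaving out 1 of the 12 libraries at a time gave 1 to 7 members lower, beside 151 to 764 genes lower over all genes tested. NFKBIA was lost without M2 MCHP replicate 1 or 3, M2 DMSO replicate 2 or 3, M1 DMSO replicate 3 or any M1 MCHP library. BIRC3 was called only without M2 DMSO replicate 1 or 3, and MYD88 only without M2 DMSO replicate 1.

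**Figure D3:**
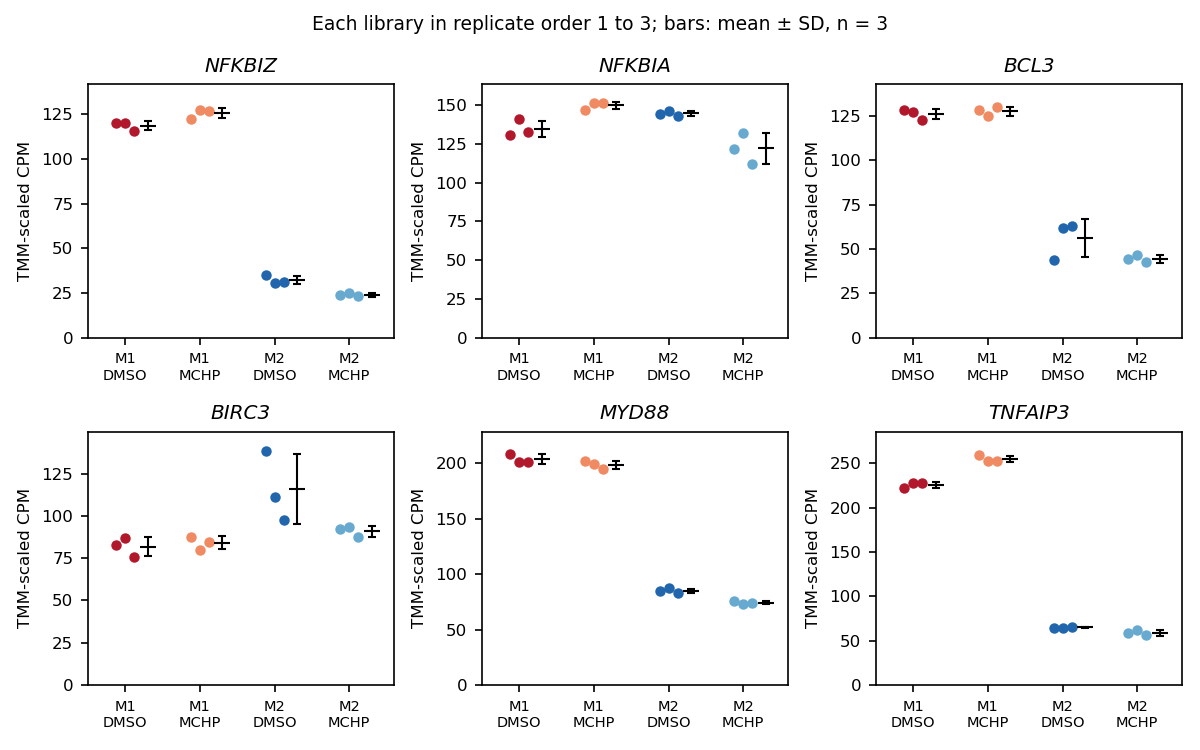
TMM-scaled CPM of 6 members in each library, with points in replicate order and bars giving the mean ± SD of 3 libraries. NFKBIZ, NFKBIA and MYD88 lie lower in M2 MCHP than in M2 DMSO with no overlap, whereas for BCL3 the M2 DMSO replicate 1 (44.1) lies among the M2 MCHP libraries.

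The other IkB genes were not called. BCL3 had 44.2, 46.5 and 42.6 CPM with MCHP and 44.1, 61.7 and 62.8 with DMSO, where replicate 1 fell among the treated libraries, and it was not called (-0.34 ± 0.10, adjusted p = 0.054). Without that library BCL3 was at -0.48 (adjusted p = 1.4e-06), and it was also called by DESeq2 (adjusted p = 0.021), without a filter on low counts (0.002), and with library size as the only scaling (0.023). NFKBID went from 10.6 ± 0.648 to 8.22 ± 0.78 CPM (-0.36, adjusted p = 0.075) and NFKBIE was at -0.13 (adjusted p = 0.25), neither called. NFKBID was called when scaled by library size alone (adjusted p = 0.048). NFKBIB lay on the other side of 0 (0.16, adjusted p = 0.4). The 6 IkB genes had a median of -0.29, the 5 subunits of -0.00, the 10 kinases and adaptors of -0.01 and the 5 tested brakes of -0.13. TNFAIP3 was at -0.14 (adjusted p = 0.22).

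On the higher side, IRAK1 went from 213, 299 and 310.2 CPM with DMSO to 349, 316 and 371 with MCHP (0.33 ± 0.10, adjusted p = 0.07). M2 DMSO replicate 1 was the lowest of these, and without it the value was 0.18 (adjusted p = 0.033). TRAF1 went from 127, 127 and 131 to 139, 144 and 155 CPM (0.19 ± 0.06, adjusted p = 0.067), with no overlap. Neither passed, although DESeq2 called both (adjusted p = 0.039 for IRAK1 and 0.045 for TRAF1). Without M2 DMSO replicate 1, 10 members were called, 7 lower and 3 higher. Besides those named, these were NFKBIE, TRAF2 and TAB3. Of all 15629 genes tested in that fit, 764 were called lower and 983 higher.

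**Figure D4:**
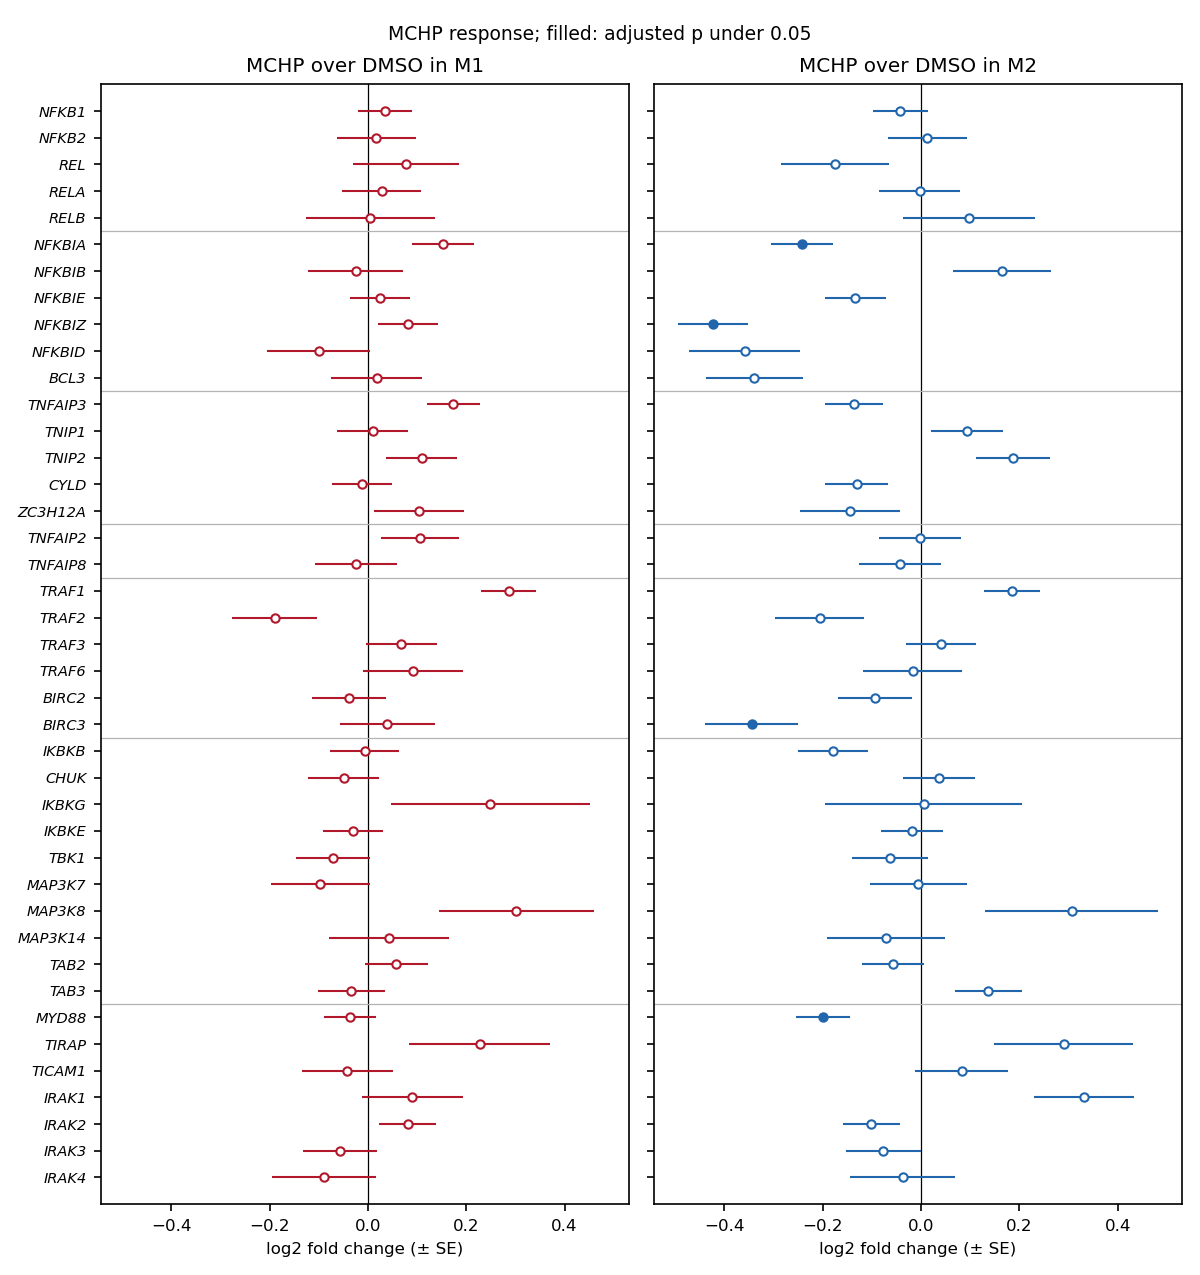
Log2 fold change of MCHP over DMSO, with standard errors, for the 41 members in M1 (left) and M2 (right), grouped by role; filled points passed an adjusted p of 0.05. No member is filled in M1, and 4 are filled in M2, all to the left of 0, from -0.20 (MYD88) to -0.42 (NFKBIZ).

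MCHP in M1 cells left no member past edgeR's quasi-likelihood test. Nearest were TRAF1 and TNFAIP3, each with all treated libraries above all solvent libraries. TRAF1 had 196, 201 and 204 CPM with MCHP and 164, 161 and 167 with DMSO, 1.22-fold higher (0.29 ± 0.06, adjusted p = 0.065). TNFAIP3 had 259, 252 and 253 and 222, 228 and 228 CPM (0.17 ± 0.05, adjusted p = 0.52). NFKBIA was next, at 147, 151 and 151 against 131, 141 and 132 CPM (0.15 ± 0.06, adjusted p = 0.86), and TRAF2 lay lower (-0.19 ± 0.09, adjusted p = 0.92). These 4 were the members with an unadjusted p under 0.05, 3 higher and 1 lower, beside 414 higher and 403 lower among all 15252 genes. The median over the members was 0.03.

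Over all genes 0.0721% were called higher and 0.0131% lower by MCHP in M1, so a count of 0 among 41 members stands beside 13 of 15252. DESeq2 called TRAF1 (adjusted p = 0.0021), as did the fit without a filter on low counts (0.036). TRAF1 and TNFAIP3 were both called in the fit of the 6 M1 libraries alone (adjusted p = 1.9e-05 and 0.0041) and without M2 DMSO replicate 1 (0.00048 and 0.034), a library outside this contrast that enters the shared estimate of spread. NFKBIZ, lower with MCHP in M2, was at 122, 127 and 127 CPM with MCHP and 119.9, 120.2 and 116 with DMSO in M1 (0.08 ± 0.06, adjusted p = 1). MYD88 (-0.04) and BIRC3 (0.04) were near 0.

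The difference between the responses, M1 minus M2, was called for NFKBIZ alone among the members, at 0.50 ± 0.09 (adjusted p = 0.031). Its level fell from 32.2 ± 2.31 to 24.0 ± 0.979 CPM with MCHP in M2 and was 119 ± 2.49 and 126 ± 2.85 CPM without and with MCHP in M1. Over all genes 0.059% had a positive difference and 0.105% a negative one at the same threshold. The NFKBIZ call held in 7 of 18 alternatives, with log2 values of 0.44 to 0.55 and adjusted p of 0.0015 to 0.14. It was lost without any 1 of the M1 libraries or of the M2 MCHP libraries and with limma-voom (0.058). NFKBIA (0.39 ± 0.09, adjusted p = 0.1), TNFAIP3 (0.31 ± 0.08, 0.18), BIRC3 (0.38 ± 0.14, 0.39) and BCL3 (0.36 ± 0.14, 0.43) had positive values without passing. In all, 7 members had an unadjusted p under 0.05, each with a positive difference, beside 644 positive and 705 negative ones among all 15252 genes. Without M2 DMSO replicate 1, 5 were called: NFKBIZ, NFKBIA, BCL3, TNFAIP3 and TNFAIP2.

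Around these components, further genes of the pathway were counted from 4 lists, beside 21.6% of all genes called higher and 20.9% lower in M1 DMSO against M2 DMSO. Of 13 tested Toll-like receptors and co-receptors, 8 were higher and 2 lower in M1 DMSO than in M2 DMSO, among them TLR8 (5.98), the LPS co-receptor CD14 (3.11), TLR2 (1.85), the trafficking chaperone UNC93B1 (1.24) and CD180 (-5.15 on the log2 scale). Of 12 cytokine receptors upstream of NF-kB, 5 were higher, such as CD40 (1.61) and TNFRSF1A (0.82), and 3 lower, such as IL18R1 (-1.34). Of 35 further components, 20 were higher, such as IRF7 (1.84), RBCK1 of the linear ubiquitin ligase (1.2) and the kinase gene RIPK1 (1.07), and 1 was lower. Of 24 output genes of NF-kB, 22 were tested: 16 were higher, such as PTGS2 (3.61), SOD2 (3.45) and CXCL8 (1.53). The other 6 were lower, CCL4 (-2.14), CCL3 (-0.96) and CCL5 (-0.92) farthest. IL6 and IL12B did not pass the filter, at group means of at most 0.0636 and 0.0437 CPM.

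With MCHP in M2, the receptors split: TLR4, the LPS receptor (1.42), and CD36, a scavenger receptor that works with TLR2 (1.10), rose, while UNC93B1 (-0.30), CD40 (-0.41) and IFNGR1 (-0.36) fell and IL18R1 rose (0.29). Of the 35 further components only the deubiquitinase gene OTUD7B was called (0.37), where 2.92% of all genes were called higher and 2.18% lower. Of the 22 output genes, CD83 (-0.60), IL23A (-0.46), CCL5 (-0.35) and TNF (-0.33) fell and PTGS2 rose (0.51), with a median of -0.18. In M1, TLR4 (0.43) and CD36 (0.91) rose and no other gene of the 4 lists was called.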

How the data were processed

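Poly-A RNA of 12 libraries (3 in each of 4 groups) was sequenced. The deposited table holds whole-number read counts per gene for every library, as the authors made them, with gene positions and lengths per the file headers. Tools in the submitters' processing notes are featureCounts (1.5.0-p3), HISAT2 (2.0.5), DESeq2 (1.20.0), StringTie (1.3.3b) and fastp, with hg38 as the build. Whether counting used strand is not given in the sources used here, so overlapping genes are named as uncertain.

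Library sizes were 14352202 to 16871233 counts, and 26650 of the 58907 genes had no count. Genes were filtered with filterByExpr, which left 15252, and scaled with TMM factors. A quasi-likelihood model with 1 mean per group and 8 residual degrees of freedom was fitted over all 12 libraries (edgeR 4.0.16, R 4.3.3), and every contrast was tested two-sided with Benjamini-Hochberg adjustment over all 15252 genes at 0.05. The contrasts share groups: M1 DMSO enters the M1 response to MCHP and the solvent polarization contrast, and M2 DMSO likewise. Errors on log2 fold changes are standard errors and those on levels are SDs over 3 libraries. CPM are TMM-scaled, and TPM were computed from the deposited gene lengths. Limits for counts of 0 (3 counts) cover counting error only. As nothing beyond the label says how replicates were raised, p-values measure the spread between these libraries.

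Members and lists were chosen with earlier results of these data known. All members are described by role. Every library's value is given for the 5 subunits, for members called in a response to MCHP or in M1 against M2 in DMSO with a log2 fold change of at least 1, and counts for members near 0. Of the tested genes of each further list at most the 5 with the smallest p in a contrast are named. CCL3, CCL4 and CCL5 in M1 against M2 in DMSO are named besides, for their low values. TRAF1, TRAF3 and IRAK1 are given by library for reasons seen in their values.

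Alternatives were 2 tools, limma-voom (3.58.1) and DESeq2 (1.42.0), 2 scalings (DESeq2's size factors, library size only), a fit of the compared groups only, a replicate block, dropping the low-count filter, and leaving out each library in turn. The script was tested on simulated data. Promoter windows and symbols come from RefSeq (GRCh38.p14), and protein sequences were not used here.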

Additional observations from a re-analysis of the deposited data

Results flagged for a closer look

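NFKBIZ was called in the main fit as differing between the polarization states in its response to MCHP, by a test of the difference itself. The log2 response was 0.08 ± 0.06 in M1 and -0.42 ± 0.07 in M2, a difference of 0.50 ± 0.09 (SE, n = 3 libraries in each of 4 groups, edgeR's quasi-likelihood test, adjusted p = 0.031). All 3 treated M2 libraries lay below all 3 solvent libraries, and all 3 treated M1 libraries lay above theirs. The call held in only 7 of 18 alternatives, over which the adjusted p ranged from 0.0015 to 0.14.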

How the results depend on the processing

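No member's call reversed under any alternative run. In M1 against M2 in DMSO the members were 25 to 31 higher and 1 to 3 lower over the leave-one-out fits, and 1 was lower in a fit of the compared groups only. With MCHP the leave-one-out counts were 27 to 30 higher and 0 to 2 lower. For MCHP in M1, 1 member was higher without a filter on low counts, 1 with DESeq2 and 2 in the compared groups only, and 0 to 2 over the leave-one-out fits. For MCHP in M2, 1 was higher without the filter, 2 with DESeq2 and 0 to 3 over the leave-one-out fits, and 0 were lower in the compared groups only, 6 with library size only and 1 to 7 over the leave-one-out fits. For the difference between the responses, 2 were higher without the filter, 3 with DESeq2, 0 with limma-voom, 0 with the replicate block and 0 to 5 over the leave-one-out fits. Over all genes, MCHP in M1 gave 13 calls, but 76 without the filter, 50 with DESeq2, 295 in the compared groups only, 5 with the block and 1 to 159 over the leave-one-out fits. MCHP in M2 gave 779, but 183 in the compared groups only and 383 to 1747 over the leave-one-out fits, and the difference gave 25, but 170 without the filter, 97 with DESeq2 and 5 to 385 over the leave-one-out fits. The highest of each was without M2 DMSO replicate 1. The labels do not say whether replicate numbers pair the samples. Same-numbered libraries correlated at -0.0478 to 0.0385 in their deviations from the group means, and 0 of 18 pairs exceeded 0.1. Taken over all genes tested, such correlations show no strong pairing but cannot exclude a weak one. With the block, M1 against M2 had 28 higher and 2 lower in DMSO and 29 and 2 with MCHP, and MCHP in M2 had 3 lower. The block called IRAK4 higher in M1 DMSO (adjusted p = 0.04) and lost MYD88 with MCHP in M2 (0.061) and NFKBIZ in the difference (0.061). The cause of each change was not tested. Depth limits chiefly TNIP3 and TICAM2.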
